A study of Homo sapiens
Mus musculus with 6 samples.

Results

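The immediate early genes FOS, FOSB, JUN, JUNB, EGR1, EGR3, ATF3, NR4A1, DUSP1 and IER2 were followed in the HEK cells of a human and mouse co-culture. They were chosen by name, with no measured value in the rule, but with earlier results of these data known. Setting them against all genes, as below, is therefore not a blind test. Each had 1 row in the human gene table. They were thus 10 of the 23855 distinct genes of that table, and all 10 passed the filter on low counts that left 13596 genes for testing.

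Immediate early genes are transcribed within minutes of a stimulus such as serum, a growth factor, stress or depolarisation, from promoters that need no new protein synthesis. ERK, p38 and JNK kinases act on factors such as SRF, the ELK proteins and CREB that already sit at these promoters. Most of the products are transcription factors, others are phosphatases and RNA-binding proteins that shut the response down, and both messages and proteins are short-lived. HEK cells are a widely used line derived from human embryonic kidney, in which serum and growth factors induce these genes.

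Each of 6 wells of 1 plate held human HEK-293-Flp-In cells, which had been added to mouse C2C12 myoblasts, and polyA RNA of the mixed culture was sequenced after 6 h together. The study used the HEK cells to present the Notch ligand Jag1 to the myoblasts. HEK-Jag1Ndr cells carried Jag1Ndr, encoded by Nodder, a missense allele of Jag1, HEK-Jag1WT cells carried wild-type Jag1, and HEK-control cells carried neither. The myoblasts were either C2C12-Notch1 cells, which carry full-length Notch1, or C2C12-control cells, giving 1 well for each combination of lines, hence 2 wells per HEK line and 3 per C2C12 line. Both C2C12 lines had been left to settle for 8 h and then transfected with 1.6 ug of pcDNA5, a plasmid with no gene named in the labels, 18 h before the HEK cells were added. HEK-Jag1Ndr and HEK-Jag1WT were kept under hygromycin at 300 ug/mL and HEK-control was not, while C2C12-Notch1 was kept under puromycin at 1 ug/mL. The labels name 1 line of each kind and no separate clones or cultures, so the ligand, the line and the selection cannot be told apart in any comparison of HEK lines. C2C12-control was kept without puromycin, so Notch1, the C2C12 line and the puromycin cannot be told apart in any comparison of partners. The p-values below rest on how much these single-plate wells scatter, and that scatter may be no more than technical.

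The human table held between 4081452 and 10292878 reads per well, with both extremes in HEK-control wells, the most beside C2C12-Notch1 and the fewest beside C2C12-control. Reads on the introduced Jag1 fell in the mouse table and numbered 42347 to 63416 in wells of the Jag1 lines, against 110 and 280 in HEK-control wells. Mouse reads made up 29.6% to 36.5% of all reads beside C2C12-Notch1, against 47.2% to 52.7% beside C2C12-control. Among HEK markers the keratin KRT8 (224 to 319 RPKM) and vimentin (205 to 272 RPKM) were well expressed, whereas STMN2 and SALL4 had at most 2 reads in every well. Of 14 C2C12 markers read as human orthologues, MYF5, MYF6, MYOG and VCAM1 had 0 human reads in every well, although Myf6 itself had at most 3 mouse reads. DES had 0 to 12 human reads beside 1647 to 10086 mouse reads on Des. Others were detected in the human table, led by ITGA7 with 127 to 547 reads, COL1A1 with 50 to 211 and MEF2C with 56 to 164. The 14 markers summed there to 24.9 and 25.8 RPKM in HEK-Jag1Ndr wells, 12.2 and 13.4 RPKM in HEK-Jag1WT wells and 23.3 and 22.2 RPKM in HEK-control wells, against 792 to 957 RPKM for the 13 HEK markers.

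The 10 genes ranged widely in level. On the RPKM scale (reads corrected for transcript length and library size, as deposited), ATF3 had the highest median over the 6 wells, 132.5 RPKM, followed by EGR1 with 98.3 and JUN with 96.3 RPKM. IER2 followed with a median of 61.5 RPKM, then NR4A1 with 36.6, DUSP1 with 26.2, FOS with 18.4, JUNB with 13.7, FOSB with 6.72 and EGR3 with 5.86 RPKM. Reads per gene and well ran between 56 for FOSB and 4229 for EGR1, and FOSB, JUNB, EGR3 and FOS, with fewest reads, carry the largest counting error. Between its lowest and highest well a gene differed by as little as 1.49-fold for JUN and as much as 4.54-fold for EGR3. In bulk samples of this kind fewer responding cells and less RNA per cell cannot be told apart. Each line comparison below comes from 1 edgeR quasi-likelihood fit to the counts of all 6 wells with a term for the HEK line and a term for the C2C12 partner, with Benjamini-Hochberg adjustment over the 13596 genes and a threshold of 0.05. Differences are log2 values with their standard error, and means are given with the SD of the 2 wells of a line, which differ in partner.

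**Figure D1:**
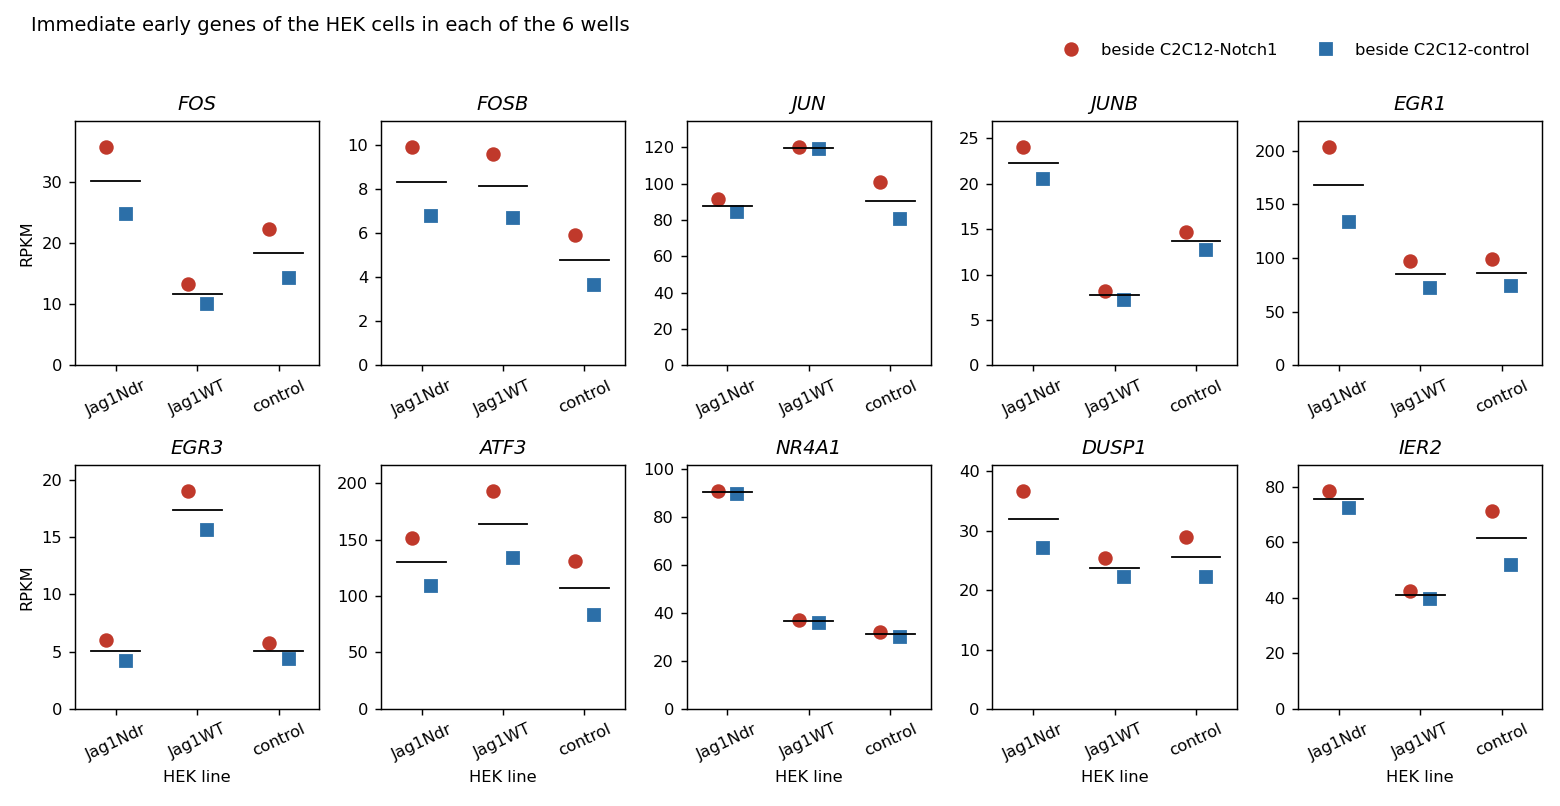
RPKM of the 10 immediate early genes in each of the 6 wells, by HEK line along the x axis; circles are wells beside C2C12-Notch1, squares wells beside C2C12-control, and the line is the mean of the 2 wells. NR4A1 stands apart in HEK-Jag1Ndr at 89.9 and 91.0 RPKM and EGR3 in HEK-Jag1WT at 15.6 and 19.0 RPKM, and for each gene the circle lies above the square in every line.

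FOS and FOSB encode basic leucine zipper proteins that bind DNA as one component of the AP-1 dimer. FOS had 35.7 RPKM in HEK-Jag1Ndr cells beside C2C12-Notch1 and 24.8 beside C2C12-control, 13.3 and 10.0 RPKM in HEK-Jag1WT cells beside those partners, and 22.4 and 14.4 RPKM in HEK-control cells. Both HEK-Jag1Ndr wells lay above all others and both HEK-Jag1WT wells below all others, so the lines did not overlap. Against HEK-control, FOS was higher in HEK-Jag1Ndr by 0.71 ± 0.09 (adjusted p = 4.29e-09) and lower in HEK-Jag1WT, at -0.69 ± 0.12 (adjusted p = 1.2e-06). HEK-Jag1Ndr stood above HEK-Jag1WT by 1.40 ± 0.11 (adjusted p = 1.11e-17), and the line means were 30.2 ± 7.69 and 11.6 ± 2.28 RPKM (SD, n = 2 wells each).

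FOSB went another way. It had 9.89 and 6.78 RPKM in HEK-Jag1Ndr cells beside C2C12-Notch1 and C2C12-control, 9.58 and 6.67 RPKM in HEK-Jag1WT cells, and 5.93 and 3.65 RPKM in HEK-control cells. All wells of both Jag1 lines lay above both HEK-control wells, while the 2 Jag1 lines overlapped. FOSB was higher than in HEK-control by 0.78 ± 0.13 in HEK-Jag1Ndr (adjusted p = 3.39e-07) and by 0.72 ± 0.13 in HEK-Jag1WT (adjusted p = 4.59e-06). The difference between HEK-Jag1Ndr and HEK-Jag1WT was 0.07 ± 0.12 and did not pass (adjusted p = 0.653). Within a well the ratio of FOSB to FOS, on the RPKM scale, was 0.277 and 0.273 in HEK-Jag1Ndr, 0.723 and 0.665 in HEK-Jag1WT, and 0.265 and 0.254 in HEK-control, beside C2C12-Notch1 and C2C12-control in that order. HEK-Jag1WT thus held more FOSB per FOS than the other lines beside both partners.

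JUN and JUNB are the partners of FOS proteins in AP-1; JUN also forms homodimers, and JUNB is a weaker activator at many AP-1 sites. JUN was the steadiest of the 10, with 91.6 and 84.4 RPKM in HEK-Jag1Ndr cells beside C2C12-Notch1 and C2C12-control, 119.8 and 119 RPKM in HEK-Jag1WT cells, and 101 and 80.6 RPKM in HEK-control cells. Both HEK-Jag1WT wells were above every other well, whereas the HEK-Jag1Ndr and HEK-control wells overlapped. JUN was higher in HEK-Jag1WT than in HEK-control by 0.36 ± 0.06 (adjusted p = 9.23e-08) and lower in HEK-Jag1Ndr than in HEK-Jag1WT, at -0.42 ± 0.05 (adjusted p = 1.77e-09). Between HEK-Jag1Ndr and HEK-control the difference of -0.05 ± 0.06 did not pass (adjusted p = 0.455), although it passed at -0.15 without the HEK-control well beside C2C12-control (adjusted p = 0.0269).

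JUNB followed FOS and not JUN. It had 24.0 and 20.5 RPKM in HEK-Jag1Ndr cells beside C2C12-Notch1 and C2C12-control, 8.17 and 7.24 RPKM in HEK-Jag1WT cells, and 14.7 and 12.7 RPKM in HEK-control cells. The lines were fully separated, with HEK-Jag1Ndr highest and HEK-Jag1WT lowest. JUNB was 0.70 ± 0.11 higher in HEK-Jag1Ndr than in HEK-control (adjusted p = 4.6e-07), and HEK-Jag1WT lay below HEK-control, at -0.85 ± 0.15 (adjusted p = 1.42e-06). The 1.55 ± 0.13 between HEK-Jag1Ndr and HEK-Jag1WT (adjusted p = 8.71e-16) was the largest positive difference of any of the 10 genes between these lines. The JUN to JUNB ratio, again in RPKM, was 3.81 and 4.11 in HEK-Jag1Ndr wells, 14.7 and 16.4 in HEK-Jag1WT wells and 6.85 and 6.36 in HEK-control wells.

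ATF3, a leucine zipper protein of the ATF and CREB family that pairs with JUN proteins and is also induced by cellular stress, had 151 and 109 RPKM in HEK-Jag1Ndr cells beside C2C12-Notch1 and C2C12-control, 193 and 134 RPKM in HEK-Jag1WT cells, and 131 and 83.1 RPKM in HEK-control cells. The HEK-Jag1Ndr wells overlapped those of both other lines. In RPKM the lowest HEK-Jag1WT well was just above the highest HEK-control well. In CPM (counts scaled to library size as in the fit) these wells had 227 and 236, so HEK-Jag1WT and HEK-control overlapped on that scale. Beside either partner the order was HEK-Jag1WT, HEK-Jag1Ndr, HEK-control. ATF3 was higher than in HEK-control by 0.27 ± 0.06 in HEK-Jag1Ndr (adjusted p = 9.39e-05) and by 0.56 ± 0.06 in HEK-Jag1WT (adjusted p = 2.65e-12). HEK-Jag1Ndr was below HEK-Jag1WT, at -0.28 ± 0.06 (adjusted p = 2.42e-05).

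EGR1 and EGR3 are zinc finger factors that bind the same GC-rich element, and EGR1 is among the most strongly serum-induced genes known. EGR1 had 203 and 134 RPKM in HEK-Jag1Ndr cells beside C2C12-Notch1 and C2C12-control, 97.5 and 72.4 RPKM in HEK-Jag1WT cells, and 99.1 and 73.6 RPKM in HEK-control cells. Even the lower HEK-Jag1Ndr well was above the highest well of the other lines, which overlapped each other. EGR1 was higher in HEK-Jag1Ndr by 0.96 ± 0.05 over HEK-control (adjusted p = 1.52e-24) and by 1.00 ± 0.05 over HEK-Jag1WT (adjusted p = 1.54e-25). The difference of HEK-Jag1WT from HEK-control, -0.04 ± 0.06, did not pass (adjusted p = 0.556).

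EGR3 showed the reverse arrangement. It had 5.99 and 4.19 RPKM in HEK-Jag1Ndr cells beside C2C12-Notch1 and C2C12-control, 19.0 and 15.6 RPKM in HEK-Jag1WT cells, and 5.73 and 4.32 RPKM in HEK-control cells. HEK-Jag1WT stood alone and the other lines overlapped. Against HEK-control, EGR3 was 1.76 ± 0.11 higher in HEK-Jag1WT, a 3.39-fold difference (adjusted p = 3.49e-22), while HEK-Jag1Ndr differed by 0.01 ± 0.13 (adjusted p = 0.95). HEK-Jag1Ndr was below HEK-Jag1WT, at -1.75 ± 0.11 (adjusted p = 2.28e-22). The ratio of EGR1 to EGR3 within a well, in RPKM, was 33.8 and 32.0 in HEK-Jag1Ndr, 5.13 and 4.63 in HEK-Jag1WT and 17.3 and 17.0 in HEK-control, beside C2C12-Notch1 and C2C12-control in that order.

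**Figure D2:**
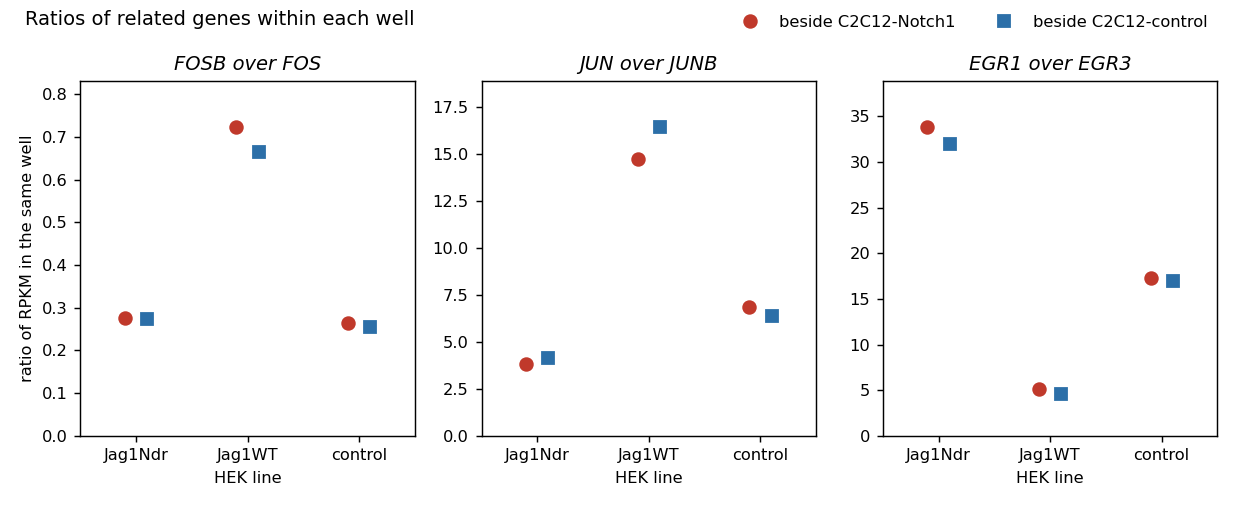
Ratio of RPKM of FOSB to FOS, JUN to JUNB and EGR1 to EGR3 within each well, by HEK line; circles are wells beside C2C12-Notch1 and squares wells beside C2C12-control. In these ratios the 2 wells of a line lie close together. The FOSB to FOS ratio of 0.665 and 0.723 in HEK-Jag1WT is far from 0.254 to 0.277 in the other lines. The wells of a line lay further apart for NR4A1 to FOS, also computed and not plotted. It was 2.55 beside C2C12-Notch1 and 3.63 beside C2C12-control in HEK-Jag1Ndr, 2.8 and 3.59 in HEK-Jag1WT, and 1.44 and 2.1 in HEK-control. The ratio of ATF3 to JUN, not plotted either, was higher beside C2C12-Notch1 in each line, and all lines overlapped.

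NR4A1, an orphan nuclear receptor that acts without a known ligand, differed little between the wells of a line. It had 91.0 and 89.9 RPKM in HEK-Jag1Ndr cells beside C2C12-Notch1 and C2C12-control, 37.2 and 36.0 RPKM in HEK-Jag1WT cells, and 32.1 and 30.2 RPKM in HEK-control cells. The lines did not overlap, and the SD within each line was at most 1.40 RPKM. NR4A1 was 1.53 ± 0.07 higher in HEK-Jag1Ndr than in HEK-control, a 2.90-fold difference (adjusted p = 2.64e-29), and 1.34 ± 0.07 higher than in HEK-Jag1WT (adjusted p = 1.57e-26). The difference of HEK-Jag1WT from HEK-control was small, 0.19 ± 0.08 (adjusted p = 0.0308), and it did not pass in DESeq2 (adjusted p = 0.134) or without either HEK-Jag1WT well or the HEK-control well beside C2C12-Notch1 (adjusted p = 0.0823 to 0.135).

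DUSP1, the phosphatase that switches off ERK, p38 and JNK and so closes the response, had 36.7 and 27.1 RPKM in HEK-Jag1Ndr cells beside C2C12-Notch1 and C2C12-control, 25.4 and 22.2 RPKM in HEK-Jag1WT cells, and 29.0 and 22.3 RPKM in HEK-control cells. Wells of all 3 lines came close to each other, and those of HEK-control overlapped both Jag1 lines. DUSP1 was 0.31 ± 0.09 higher in HEK-Jag1Ndr than in HEK-control (adjusted p = 0.00348), which did not pass in DESeq2 (adjusted p = 0.113) or without the HEK-Jag1Ndr well beside C2C12-Notch1 (adjusted p = 0.238). HEK-Jag1WT differed from HEK-control by -0.13 ± 0.10 (adjusted p = 0.266). HEK-Jag1Ndr was above HEK-Jag1WT by 0.44 ± 0.10 (adjusted p = 6.18e-05), but without the HEK-Jag1WT well beside C2C12-Notch1 the adjusted p was 0.07.

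IER2, a small nuclear protein of the serum response, had 78.4 and 72.4 RPKM in HEK-Jag1Ndr cells beside C2C12-Notch1 and C2C12-control, 42.6 and 39.5 RPKM in HEK-Jag1WT cells, and 71.2 and 51.7 RPKM in HEK-control cells. In RPKM all lines were separated, the closest wells being 72.4 RPKM in HEK-Jag1Ndr and 71.2 RPKM in HEK-control. In CPM, scaled as in the fit, both of these wells had 137, so HEK-Jag1Ndr and HEK-control were not separated on that scale. IER2 was lower in HEK-Jag1WT than in HEK-control, at -0.63 ± 0.08 (adjusted p = 8.06e-10), and 0.90 ± 0.08 higher in HEK-Jag1Ndr than in HEK-Jag1WT (adjusted p = 5.77e-16). It was 0.28 ± 0.07 higher in HEK-Jag1Ndr than in HEK-control (adjusted p = 0.000844), a call lost without the HEK-control well beside C2C12-control (adjusted p = 0.0708).

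Counted together, 8 of the 10 genes were higher in HEK-Jag1Ndr than in HEK-control and none was lower; EGR3 and JUN did not pass. The HEK lines differed widely in this comparison, with 46.1% of all tested genes called, 22.6% higher and 23.5% lower. The median difference of the 10 was 0.51, against -0.01 over all tested genes. In HEK-Jag1WT against HEK-control, 5 of the 10 were higher (FOSB, JUN, EGR3, ATF3, NR4A1) and 3 lower (FOS, JUNB, IER2), where 54.3% of all genes were called, 24.9% higher and 29.4% lower. Here the median of the 10 was 0.08, against -0.03 over all genes, so members moved both ways. In HEK-Jag1Ndr against HEK-Jag1WT, 6 of the 10 were higher (FOS, JUNB, EGR1, NR4A1, DUSP1, IER2) and 3 lower (JUN, EGR3, ATF3), with 57.7% of all genes called, 29.2% higher and 28.5% lower, and medians of 0.67 and -0.01. These comparisons share wells and are not independent of each other. With so many genes called between the lines, a call for 1 member is common in this background. With the partner term left out of the fit, 2 of the 10 were called in HEK-Jag1Ndr against HEK-control, where 35.3% of all genes were, 4 in HEK-Jag1WT against HEK-control, where 45.2% were, and 6 between the Jag1 lines, where 49.1% were. The HEK marker NEFL also moved with the line, at 24.2 and 27.3 RPKM in HEK-Jag1Ndr, 195 and 208 RPKM in HEK-Jag1WT and 59.1 and 62.8 RPKM in HEK-control; its part in these results was not tested. Among 11 HEK markers tested, 4 were higher and 3 lower in HEK-Jag1Ndr than in HEK-control, and 3 were higher and 4 lower in HEK-Jag1WT than in HEK-control. Of 6 C2C12 markers that passed the filter in the human table, 3 were higher and 0 lower in HEK-Jag1Ndr than in HEK-control, 1 was higher and 3 lower in HEK-Jag1WT than in HEK-control, and 4 were higher and 0 lower in HEK-Jag1Ndr than in HEK-Jag1WT. Their summed level was lowest in HEK-Jag1WT, as were FOS, JUNB and IER2, and its part in these results was not tested.

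**Figure D3:**
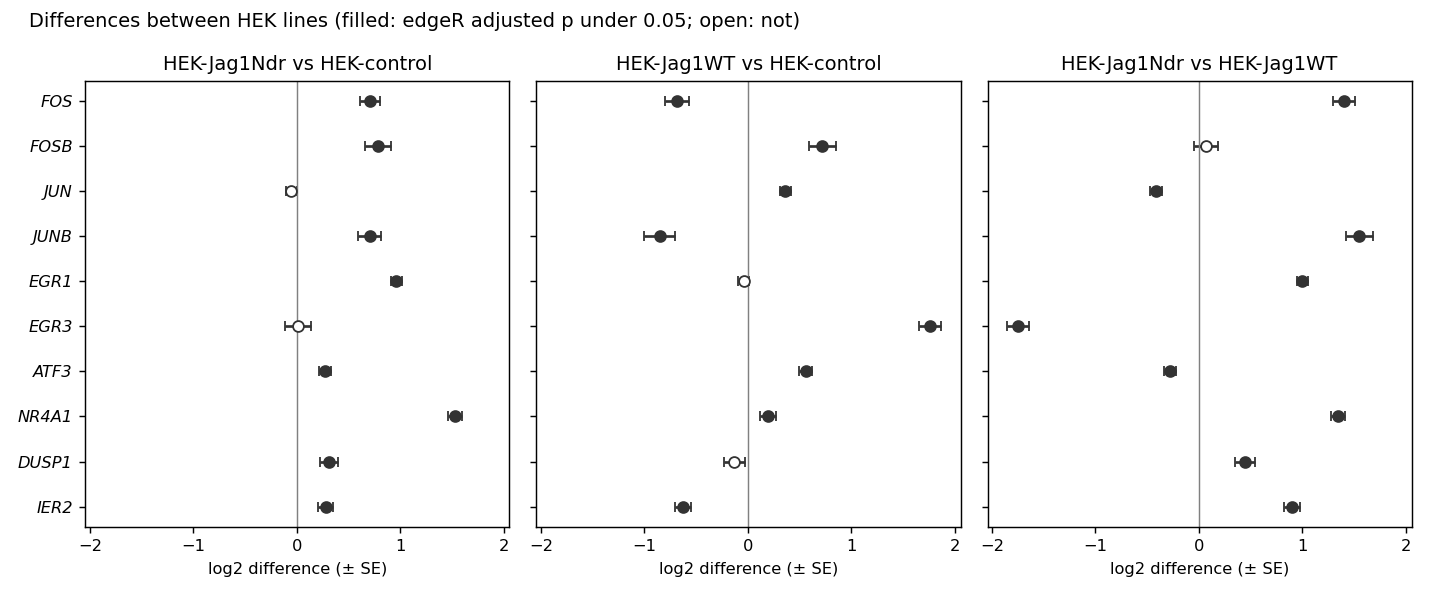
Log2 difference (± SE, edgeR) of each of the 10 genes in the 3 comparisons of HEK lines; filled points passed an adjusted p of 0.05. Positive values are higher in the first-named line. FOS, JUNB and IER2 lie on opposite sides of 0 in HEK-Jag1Ndr and HEK-Jag1WT, and EGR3 is far to the right in HEK-Jag1WT alone.

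Beside C2C12-Notch1 myoblasts, most of the 10 genes were modestly higher in the HEK cells than beside C2C12-control myoblasts. edgeR found 8 of 10 higher and none lower, where 4.84% of all genes were called, 3.07% higher and 1.77% lower. The median difference of the 10 was 0.39, against 0.00 over all genes. EGR1, ATF3, FOS and FOSB moved most. EGR1 averaged 133 ± 60.3 RPKM beside C2C12-Notch1 and 93.3 ± 35.3 RPKM beside C2C12-control, and ATF3 averaged 158.5 ± 31.5 RPKM beside C2C12-Notch1 and 108.5 ± 25.3 RPKM beside C2C12-control (SD, n = 3 wells each); these SDs include the differences between HEK lines. With the HEK line in the fit, the differences were 0.53 ± 0.04 for EGR1 (adjusted p = 5.07e-15), 0.57 ± 0.05 for ATF3 (adjusted p = 1.18e-14), 0.56 ± 0.09 for FOS (adjusted p = 3.6e-06) and 0.60 ± 0.10 for FOSB (adjusted p = 4.65e-05).

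The other calls were smaller or rested on particular wells. DUSP1 was 0.38 ± 0.08 higher (adjusted p = 0.000908) and EGR3 0.40 ± 0.09 higher (adjusted p = 0.00359), and neither passed without either HEK-Jag1Ndr well (adjusted p = 0.105 to 0.143). IER2 was 0.26 ± 0.06 higher (adjusted p = 0.00529) and JUN 0.18 ± 0.05 higher (adjusted p = 0.00918), and neither passed without either HEK-control well (adjusted p = 0.103 to 0.14). JUNB, at 0.25 ± 0.10 (adjusted p = 0.165), and NR4A1, at 0.08 ± 0.06 (adjusted p = 0.486), did not pass. NR4A1 was the member with the widest gap between HEK-Jag1Ndr and HEK-control and the smallest difference between partners.

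Ratios between single wells show the same comparison line by line; they have no replicate, and their 95% intervals (exact, conditional on the 2 counts) cover counting error only. Within each of the 3 HEK lines all 10 genes had a larger share of the human reads beside C2C12-Notch1. The log2 ratios ran between 0.08 and 0.64 in HEK-Jag1Ndr, between 0.05 and 0.56 in HEK-Jag1WT and between 0.11 and 0.71 in HEK-control. Counting intervals lay wholly above 0 for 9 genes in HEK-Jag1Ndr, 5 in HEK-Jag1WT and 8 in HEK-control. Such ratios were computed for the 10 genes only, so these counts have no share over all tested genes to be read against. EGR1 had 0.64 (interval 0.57 to 0.70) in HEK-Jag1Ndr, 0.465 (0.36 to 0.58) in HEK-Jag1WT and 0.45 (0.35 to 0.56) in HEK-control. ATF3 had 0.48 (0.38 to 0.58), 0.56 (0.46 to 0.67) and 0.69 (0.56 to 0.83) in those lines, so its order of lines was the opposite of EGR1's. JUN had 0.16 (0.07 to 0.25) in HEK-Jag1Ndr and 0.35 (0.25 to 0.45) in HEK-control, while its interval in HEK-Jag1WT, -0.04 to 0.14, included 0. Whether the partner's difference depends on the HEK line was not tested, since each combination was 1 well.

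Other methods called fewer genes between partners, among the 10 and overall. DESeq2 called 3 of the 10, where it called 0.522% of all genes, and gave no adjusted p for FOSB, JUNB and EGR3. On log2 RPKM, limma called 2 with a pseudocount of 0.1 and 2 with a pseudocount of 1, where it called 0.199% and 0.184% of all genes. Both times these were EGR1 and ATF3. With these pseudocounts FOS (limma adjusted p = 0.0587 and 0.0697) and FOSB (0.103 and 0.104) did not pass. A fit without the HEK line called 0 of the 10 and 0% of all genes, with 1 member and 52 genes in all at an unadjusted p under 0.05. Each of the 10 had a positive difference under all alternatives tried, the lowest being 0.05 for NR4A1. The share of mouse reads, 29.6% to 36.5% beside C2C12-Notch1 and 47.2% to 52.7% beside C2C12-control, moved with the partner in every HEK line, and its part in these differences was not tested. The C2C12 markers in the human table summed to 12.2 to 24.9 RPKM beside C2C12-Notch1 and 13.4 to 25.8 RPKM beside C2C12-control. None of 11 HEK markers and none of 6 C2C12 markers tested was called between partners, with 4 and 0 at an unadjusted p under 0.05 and 0 of either list called by DESeq2.

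**Figure D4:**
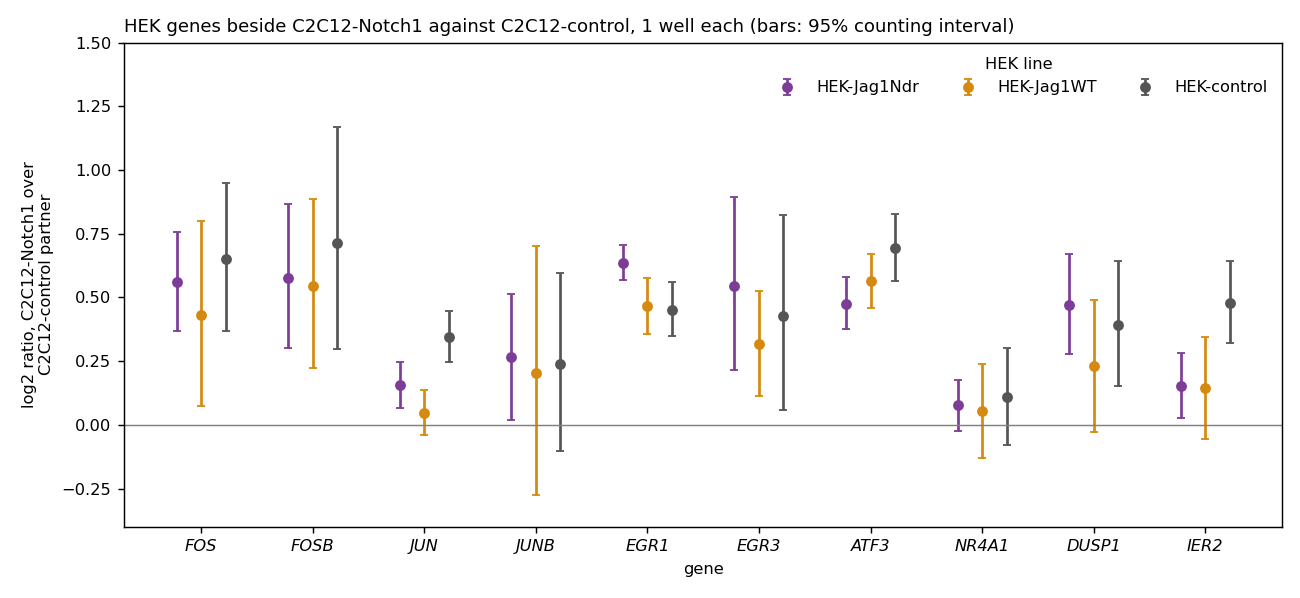
Log2 ratio of CPM beside C2C12-Notch1 over C2C12-control for each gene within each HEK line, 1 well against 1; bars are exact 95% counting intervals and do not include variation between wells. All 30 points lie above 0, the highest being FOSB in HEK-control at 0.71 and the lowest JUN in HEK-Jag1WT at 0.05.

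The 10 genes did not vary as a single block over the 6 wells. As a description over wells that share lines and depth, Pearson's r of log2 CPM (counts scaled to library size) was 0.97 for FOS with IER2, 0.96 for FOS with JUNB and 0.94 for EGR1 with DUSP1. JUN and EGR3 formed a second pattern, with r of 0.94 between them, and were opposed to JUNB at -0.70 and -0.80. FOSB and ATF3 had an r of 0.90 with each other, and ATF3 had 0.79 with JUN and 0.71 with EGR3. The mean of the 10 centred log2 profiles was highest in HEK-Jag1Ndr beside C2C12-Notch1 at 0.52 and lowest in HEK-control beside C2C12-control at -0.46, with HEK-Jag1Ndr beside C2C12-control at 0.13, HEK-Jag1WT at 0.06 and -0.24, and HEK-control beside C2C12-Notch1 at -0.01.

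Among 12078 other genes whose log2 CPM averaged at least 2, the 8 whose profiles over the 6 wells were most like that mean were IL17RB (r = 0.995), TIPARP (0.994), RBAK (0.993), C1orf27 (0.991), DDX60L (0.984), ARAP2 (0.984), POLR2D (0.982) and CDK13 (0.977). TIPARP, an ADP-ribosyltransferase, is itself on the list of other immediate early genes and had 16.2 and 11.8 RPKM in HEK-Jag1Ndr, 11.9 and 9.76 RPKM in HEK-Jag1WT and 10.8 and 8.12 RPKM in HEK-control beside C2C12-Notch1 and C2C12-control. DDX60L covered the widest range of the 8, between 3.38 RPKM in HEK-Jag1Ndr beside C2C12-Notch1 and 0.677 RPKM in HEK-control beside C2C12-control. With 6 wells such a ranking is loose, since 45 candidates had a Spearman rho of 1. TIPARP, IL17RB and CDK13 were not among these 45, each with a rho of 0.943.

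A list of 36 other immediate early genes was read in the same fit. Counts for this and the lists below are to be read against the share of all tested genes called. Against HEK-control that share was 46.1% in HEK-Jag1Ndr and 54.3% in HEK-Jag1WT. It was 57.7% between the Jag1 lines and 4.84% between partners. Where a line is given with a pair of RPKM values, they are its well beside C2C12-Notch1 and its well beside C2C12-control. Against HEK-control, 16 were higher and 10 lower in HEK-Jag1Ndr (median 0.22), while in HEK-Jag1WT 6 were higher and 19 lower (median -0.35). Between HEK-Jag1Ndr and HEK-Jag1WT, 21 were higher and 7 lower (median 0.41), and between partners 14 were higher and 0 lower (median 0.25, DESeq2 calling 7). The matricellular genes CYR61 and CTGF had their highest levels in HEK-Jag1Ndr. CYR61 had 142 and 91.3 RPKM in HEK-Jag1Ndr, 62.3 and 51.9 RPKM in HEK-Jag1WT and 40.4 and 26.5 RPKM in HEK-control, and was 1.79 ± 0.07 higher in HEK-Jag1Ndr than in HEK-control (adjusted p = 7.42e-30). CTGF was 1.70 ± 0.08 higher there (adjusted p = 8.9e-29). Both are also known targets of YAP and TAZ, the coactivators of the Hippo pathway.

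MYC, a growth factor-induced transcription factor, had its highest level in HEK-control. It had 55.3 and 47.0 RPKM in HEK-Jag1Ndr, 26.1 and 22.8 RPKM in HEK-Jag1WT and 95.8 and 97.2 RPKM in HEK-control, lower than in HEK-control in both Jag1 lines, at -0.91 ± 0.07 (adjusted p = 1.18e-18) and -1.99 ± 0.08 (adjusted p = 3.27e-32). TRIB1, a pseudokinase that directs protein degradation, and ARC, a synaptic immediate early gene, were lower in HEK-Jag1WT than in HEK-control, at -1.12 ± 0.07 (adjusted p = 3.51e-23) and -0.97 ± 0.09 (adjusted p = 1.33e-14). They stood 1.84 ± 0.06 (adjusted p = 1.79e-35) and 1.42 ± 0.08 (adjusted p = 7.5e-23) higher in HEK-Jag1Ndr than in HEK-Jag1WT. PPP1R15A, which restores translation after stress by directing a phosphatase to eIF2alpha, went with ATF3: it had 89.4 and 82.4 RPKM in HEK-Jag1Ndr, 151 and 146 RPKM in HEK-Jag1WT and 75.7 and 65.0 RPKM in HEK-control. Between partners MCL1, a survival factor of the BCL2 family, was 0.36 ± 0.04 higher beside C2C12-Notch1 (adjusted p = 4.19e-11), CYR61 0.55 ± 0.06 higher (adjusted p = 2.23e-10) and GADD45B, a stress-induced growth regulator, 0.60 ± 0.09 higher (adjusted p = 1.38e-06). CYR61 and GADD45B did not pass in limma, and none of the 3 passed in a fit without the HEK line.

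**Figure D5:**
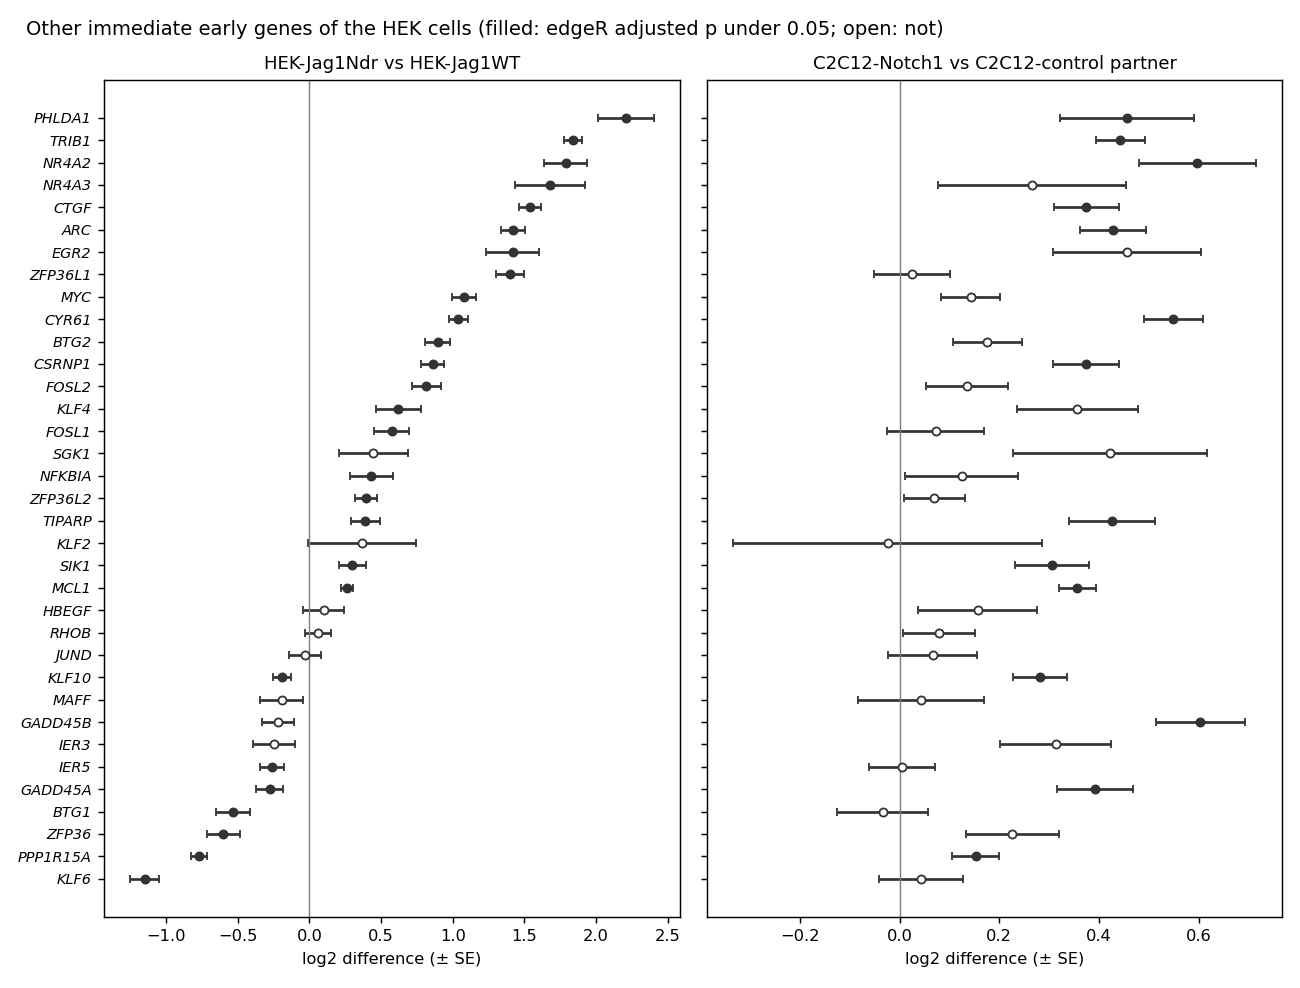
Log2 difference (± SE, edgeR) of the other immediate early genes between HEK-Jag1Ndr and HEK-Jag1WT (left) and between the C2C12-Notch1 and C2C12-control partners (right), ordered by the left panel; filled points passed an adjusted p of 0.05. EGR4 is left out because HEK-Jag1WT had 1 and 2 reads. On the right the filled points, 14 in all, lie above 0, whereas on the left 7 filled points lie below 0.

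Like EGR1 and NR4A1, their relatives EGR2, EGR4 and NR4A2 had their highest levels in HEK-Jag1Ndr. EGR2 had 8.96 and 5.88 RPKM in HEK-Jag1Ndr, 2.60 and 3.00 RPKM in HEK-Jag1WT and 3.83 and 3.04 RPKM in HEK-control, and was 1.10 ± 0.17 higher in HEK-Jag1Ndr than in HEK-control (adjusted p = 9.18e-08). EGR4 had 38 and 32 reads in HEK-Jag1Ndr, 1 and 2 reads in HEK-Jag1WT and 25 and 10 reads in HEK-control, too few for a fold. NR4A2 had 11.9 and 9.52 RPKM in HEK-Jag1Ndr, 3.89 and 2.43 RPKM in HEK-Jag1WT and 6.66 and 3.17 RPKM in HEK-control, and was 1.06 ± 0.13 higher in HEK-Jag1Ndr than in HEK-control (adjusted p = 2.3e-10). NAB1, a corepressor that EGR proteins recruit, was 0.57 ± 0.08 higher in HEK-Jag1Ndr than in HEK-control (adjusted p = 3.11e-09). VEGFA, the angiogenic growth factor, was lower than in HEK-control in both Jag1 lines, at 8.30 and 9.05 RPKM in HEK-Jag1Ndr and 11.9 and 14.3 RPKM in HEK-Jag1WT, against 25.8 and 25.9 RPKM in HEK-control. Of the 12 cofactors and targets of EGR and NR4A proteins, 5 were higher and 2 lower in HEK-Jag1Ndr and 3 were higher and 6 lower in HEK-Jag1WT, each against HEK-control. Between partners edgeR called 1 higher and 1 lower beside C2C12-Notch1. These were NR4A2, at 0.597 ± 0.118 (adjusted p = 0.00054), and TXNIP, at -0.385 ± 0.106 (adjusted p = 0.0206). Neither passed in limma or in a fit without the HEK line, and DESeq2 called 0 of the 12. TXNIP also did not pass without either HEK-Jag1Ndr well.

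Among 11 leucine zipper partners of AP-1, FOSL1, FOSL2 and JUND belong to the FOS and JUN families themselves. FOSL2 had 15.6 and 14.8 RPKM in HEK-Jag1Ndr, 9.15 and 8.41 RPKM in HEK-Jag1WT and 11.4 and 10.5 RPKM in HEK-control, and was 0.48 ± 0.09 higher in HEK-Jag1Ndr than in HEK-control (adjusted p = 2.23e-05). FOSL1 was lower in HEK-Jag1WT than in HEK-control, at -0.57 ± 0.12 (adjusted p = 8.36e-05). JUND differed by -0.25 ± 0.11 between HEK-Jag1Ndr and HEK-control (adjusted p = 0.0433), with an adjusted p up to 0.943 over the alternatives. ATF4, the central factor of the integrated stress response, was 0.52 ± 0.05 higher in HEK-Jag1WT than in HEK-control (adjusted p = 1.5e-13), with 362 and 327 RPKM in HEK-Jag1Ndr, 499 and 494 RPKM in HEK-Jag1WT and 343 and 336 RPKM in HEK-control. Of the 11, 2 were higher and 1 lower in HEK-Jag1Ndr and 3 higher and 3 lower in HEK-Jag1WT, each against HEK-control; between partners edgeR called 0, with 2 at an unadjusted p under 0.05, and DESeq2 called 0.

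Upstream, the receptor EGFR had 11.6 and 10.6 RPKM in HEK-Jag1Ndr, 4.40 and 3.61 RPKM in HEK-Jag1WT and 4.41 and 4.53 RPKM in HEK-control. It was 1.34 ± 0.11 higher in HEK-Jag1Ndr than in HEK-control (adjusted p = 6.61e-17). MAPK14, the p38alpha kinase, went the other way in HEK-Jag1Ndr, at -0.93 ± 0.07 against HEK-control (adjusted p = 4.58e-17). MAP2K3, a kinase that activates p38, was below HEK-control in both Jag1 lines, at -0.64 ± 0.08 in HEK-Jag1Ndr (adjusted p = 1.19e-09) and -0.89 ± 0.09 in HEK-Jag1WT (adjusted p = 2.19e-13). Of 27 kinases and adaptors of the RAS-ERK, p38 and JNK pathways tested, 5 were higher and 9 lower in HEK-Jag1Ndr and 4 higher and 11 lower in HEK-Jag1WT than in HEK-control. Only RPS6KA3 of the 27 was called between partners in edgeR, 0.23 ± 0.05 higher (adjusted p = 0.00103), and it did not pass without either HEK-Jag1WT well, in DESeq2, in limma or in a fit without the HEK line.

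SRF, which binds the serum response element of FOS and EGR1 promoters, was lower in HEK-Jag1Ndr than in HEK-control, at -0.60 ± 0.07 (adjusted p = 7.72e-11), with 21.2 and 19.8 RPKM in HEK-Jag1Ndr, 35.2 and 32.4 RPKM in HEK-Jag1WT and 31.5 and 31.3 RPKM in HEK-control. Its coactivator MKL2 was lower there too, at -0.58 ± 0.09 (adjusted p = 9.4e-08). Of the 14 SRF, ELK and CREB regulators, 1 was higher and 3 lower in HEK-Jag1Ndr, and 3 were higher and 2 lower in HEK-Jag1WT, each against HEK-control. Between partners EP300, a histone acetyltransferase, was the 1 call, 0.30 ± 0.05 higher beside C2C12-Notch1 (adjusted p = 4.65e-05), though it did not pass in limma or in a fit without the HEK line.

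Genes that ERK signalling induces as feedback and output gave a mixed picture. DUSP16, a phosphatase acting mainly on JNK, had 13.2 and 12.4 RPKM in HEK-Jag1Ndr, 25.5 and 23.7 RPKM in HEK-Jag1WT and 8.83 and 7.51 RPKM in HEK-control, and was 0.63 ± 0.08 and 1.55 ± 0.08 higher than in HEK-control in those Jag1 lines (adjusted p = 2.46e-09 and 3.16e-26). ETV5, an ETS factor used as a readout of ERK activity, was lower than in HEK-control in both, at -0.36 ± 0.08 in HEK-Jag1Ndr (adjusted p = 6.42e-05) and -0.80 ± 0.08 in HEK-Jag1WT (adjusted p = 1.66e-12). ETV4 was lower in both too, at -1.16 ± 0.16 in HEK-Jag1Ndr (adjusted p = 1.07e-08) and -0.855 ± 0.163 in HEK-Jag1WT (adjusted p = 9.1e-06). SPRY4, an inhibitor of the RAS-ERK pathway, was 1.18 ± 0.14 higher in HEK-Jag1Ndr than in HEK-Jag1WT (adjusted p = 5.67e-11). Against HEK-control, SPRY4 was lower in HEK-Jag1WT, at -1.23 ± 0.14 (adjusted p = 1.8e-11), while HEK-Jag1Ndr differed by -0.05 ± 0.11 and did not pass (adjusted p = 0.726). Of 16 such genes tested, 3 were higher and 6 lower in HEK-Jag1Ndr, and 3 higher and 9 lower in HEK-Jag1WT, each against HEK-control. Between partners edgeR called 0 of the 16, with 7 at an unadjusted p under 0.05, and DESeq2 called 0.

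In the mouse table of the same wells the orthologues sat at other levels. Fos had 0.529 to 2.36 RPKM, Nr4a1 2.86 to 5.46 RPKM and Egr3 1.22 to 3.12 RPKM, whereas Junb had 51.1 to 69.8 RPKM and Jun 57.9 to 67.4 RPKM. For FOS and NR4A1 the human reads outnumbered the mouse reads by 11.1 to 54.8 times and 6.2 to 48.2 times, while for JUNB there were fewer human than mouse reads in each well, with human to mouse ratios of 0.154 to 0.666.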

How the data were processed

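PolyA RNA of 6 co-culture wells was sequenced after a TruSeq v2 preparation, per the labels, which leaves the strand unmarked, so a gene and an overlapping antisense gene cannot be told apart. Per the file headers, the authors deposited, for each gene and well, read counts and RPKM, in a human and a mouse table. The submitters' processing notes list STAR, hg19 and mm9. Not given in the sources used here were the counting tool, the version of STAR and how each read was assigned to a species. The human table had 24303 rows, of which 448 were exact repeats and were dropped. The authors' RPKM describe levels, and tests used the deposited counts.

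Counts were fitted in edgeR 4.0.16 (R 4.3.3; quasi-likelihood F test, TMM scaling, filterByExpr, common biological coefficient of variation 3.48%) with additive terms for HEK line and C2C12 line, leaving 2 residual degrees of freedom, and Benjamini-Hochberg adjustment over 13596 genes. A standard error is the log2 difference divided by the square root of F. DESeq2 1.42.0, limma 3.58.1 on log2(RPKM + 0.1) and log2(RPKM + 1), other scalings and filters, a fit with 1 line term, and leaving out each well were alternatives. The fit was tested on simulated counts. Single-well ratios used a prior count of 2. Counting intervals treat PCR reads as independent molecules.

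The 10 genes and all lists were chosen with earlier results of these data known. All 10 are named in each comparison. Genes named from a list were among the up to 4 per comparison with the smallest p of those called. Not all of those genes are named, and some are also given in comparisons where they were not among the 4. HEK and C2C12 markers, TIPARP and the mouse orthologues were named besides. Genes most like the members are the 8 with the highest Pearson r over the wells. No sequences or coordinates of these genes were used here.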

Additional observations from a re-analysis of the deposited data

Results flagged for a closer look

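The single-well ratios of HEK-Jag1Ndr to HEK-control had opposite signs beside the 2 partners for JUN and EGR3. For JUN the log2 ratio was -0.132 (95% counting interval -0.212 to -0.0521) beside C2C12-Notch1 and 0.0578 (-0.0495 to 0.166) beside C2C12-control. For EGR3 it was 0.0706 (-0.216 to 0.355) beside C2C12-Notch1 and -0.0482 (-0.469 to 0.379) beside C2C12-control. The intervals of 3 of these 4 ratios include 0. With 1 well per combination the difference between partners was not tested, and neither gene passed the test of HEK-Jag1Ndr against HEK-control over both partners.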

How the results depend on the processing

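Of 557 values of the 10 genes under the alternatives, 497 kept both their direction and their side of the threshold, 52 lost the call, 1 gained it and 7 changed sign; for the other named genes 1027 of 1104 values kept both, 76 lost the call and 1 changed sign. All 90 single-well ratios moved less than their counting interval with a prior count of 0.5. A fit with 1 line term called 4 of the 10 genes in HEK-Jag1WT and 2 in HEK-Jag1Ndr against HEK-control, and 0 between partners, where it called 45.2%, 35.3% and 0% of all genes. Between partners, DESeq2 called 3 of the 10 and limma 2 with a pseudocount of 0.1 and 2 with 1. Over all genes, DESeq2 called 4267 in HEK-Jag1WT and 2995 in HEK-Jag1Ndr against HEK-control, 4866 between the Jag1 lines and 71 between partners. Between partners limma called 27 and 25 with these pseudocounts, the fit with 1 line term 0 (52 genes at an unadjusted p under 0.05), and leaving out 1 well 176 to 1428, against 658. With library sizes alone as scaling, 252 genes were higher and 351 lower beside C2C12-Notch1, against 417 and 241. Signs changed for differences that had not passed, apart from JUND: leaving out 1 well gave -0.111 to 0.0412 for EGR1 and -0.192 to 0.0253 for DUSP1 (HEK-Jag1WT against HEK-control), -0.152 to 0.0860 for JUN, -0.111 to 0.106 for EGR3 and -0.45 to 0.0689 for JUND (HEK-Jag1Ndr against HEK-control), and -0.00636 to 0.0822 for FOSB (HEK-Jag1Ndr against HEK-Jag1WT). The fit with 1 line term gave -0.04385 for EGR3 in HEK-Jag1Ndr against HEK-control. The cause was not tested, although fits without a well have 1 residual degree of freedom.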
